A study of Macaca mulatta with 4 samples.

Results

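The 35 genes described here drive or mark the cell division cycle and DNA replication. They were taken by symbol from a table of read counts per gene in prefrontal cortex of infant rhesus macaques (Macaca mulatta), and all 35 symbols were present among the 33618 genes listed. The list covers 5 D cyclins and their kinases, 4 genes of the step from G1 into S phase, 9 replication genes, 14 genes of G2 and mitosis, and 3 inhibitors of cyclin-dependent kinases. Of these, 33 had enough counts to be tested, as did 17693 of all genes. CCNB2 and AURKB did not.

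RNA from 4 libraries was sequenced, 2 per group, all from wild-type animals. The sevoflurane animals inhaled this general anaesthetic in 3 sessions of 4 hours at about 2.5 to 3%, the earliest around postnatal day 7 and the later ones 14 and 28 days on, and tissue was collected as soon as the last session ended. The control libraries have "none" as their agent, with nothing more on the handling of these animals. Replicates are numbered 2 and 3 in each group. Nothing in the labels ties them to different animals, and the p-values then reflect only the spread between these samples, possibly a technical one.

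Cells enter the cycle when D cyclins bind the kinases CDK4 and CDK6 and inactivate the retinoblastoma protein, which frees E2F transcription factors. E2F targets include cyclin E and the genes that license and copy DNA, and a later wave of genes builds the mitotic spindle and its checkpoint. In the infant cortex most neurons have already left the cycle, and the cells that still divide are mainly glia, above all oligodendrocyte precursors. The replication and mitosis transcripts are therefore read as a measure of residual proliferation, and the list as a whole is not. Which cells each transcript came from is not known here. In bulk tissue, fewer cells of a type and less RNA per cell cannot be told apart.

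Libraries held from 7793757 (control replicate 3) to 11706115 counts (sevoflurane replicate 3). On the first principal component of all tested genes, the shallowest library, control replicate 3, was at 59.6, away from control replicate 2 at -3.12 and the sevoflurane libraries at -32.0 and -24.4. Neuronal markers were abundant in every library (9 genes, summed level 6193 to 8011 CPM), and all 8 cortical layer genes passed the count filter. EOMES, which marks intermediate neuronal progenitors, had 0 counts in every library, but 13 of the 15 radial glia and neural progenitor markers passed the filter. Whether the annotation used for counting affects the 0 of EOMES could not be checked.

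Levels are in CPM, counts scaled to a common library size after TMM correction. They are not divided by transcript length, so levels of different genes are not comparable, and a sum over genes is weighted towards long and abundant transcripts. Differences are log2 fold changes of sevoflurane against control, with a standard error (SE) and a 95% interval from edgeR's quasi-likelihood fit. A gene counted as called where its p, adjusted by Benjamini and Hochberg's method across all tested genes, was under 0.05.

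The comparison asked whether cell cycle transcripts differed after repeated sevoflurane. None of the 33 tested cell cycle genes was called by edgeR, against 0.599% of all tested genes (106 genes, with 0.0622% called higher and 0.537% called lower). At an unadjusted p under 0.05 there were 2, CCND1 and CDK6, and the background at that level was 9.92%. DESeq2, limma-voom and edgeR's likelihood ratio test also called 0. DESeq2 gave no adjusted p for several members with few counts, such as CCNE1, MCM5 and CDK1, so it could not call these. The median log2 fold change over the 33 genes was -0.05, beside -0.00 over all tested genes, with 13 positive and 20 negative values between -1.24 (CDC20) and 0.72 (MCM7). Both sevoflurane libraries lay above both controls for 5 genes (background 20.8%) and below both for 10 (background 20.4%). Together that is 15 of 33, near the 41.2% of all tested genes whose groups did not overlap.

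The intervals show how large a difference the data leave possible. For 18 of the 33 genes the 95% interval lay wholly within a 2-fold change in either direction, as it did for 62.4% of all tested genes. These 18 had a median of 838.5 counts summed over the 4 libraries. The other 15 had a median of 100 counts and at most 423, and a 2-fold change of these genes was not excluded by their intervals. A gene is placed by its fold change as well as by the width of its interval. CCNB1 (175 counts, value 0.00) lay within 2-fold and CDK6 (423 counts, value -0.90) did not. CCND2, with 28700 counts, had the narrowest interval, and MCM7, with 43, the widest. A p that misses the threshold therefore does not show that a gene did not differ.

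**Figure D1:**
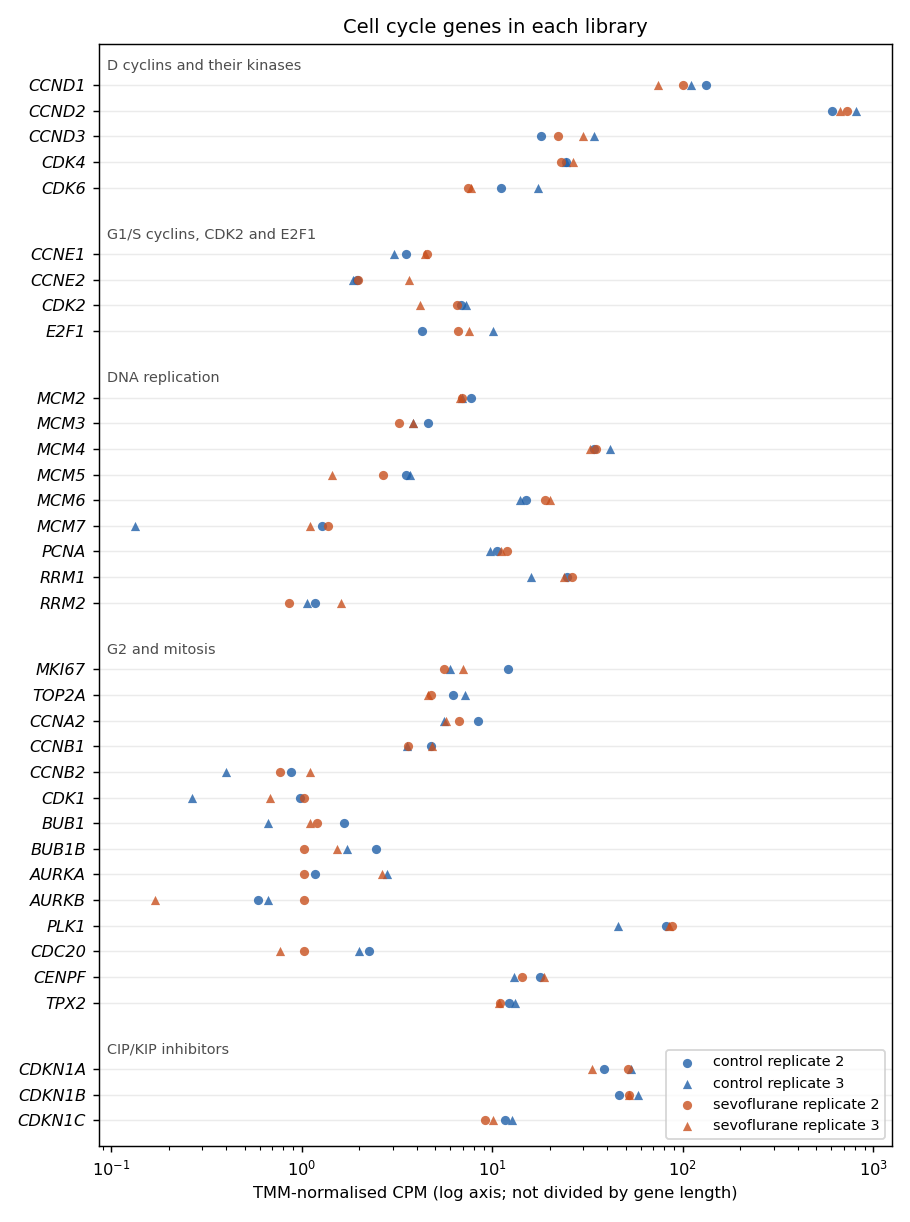
Level of each of the 35 cell cycle genes in each library, in TMM-normalised CPM on a log axis, grouped by role. Blue points are control and orange points sevoflurane libraries, circles replicate 2 and triangles replicate 3. Colours are mixed on most lines. CDK6, CCND1, CDC20 and MCM6 are among the genes whose blue and orange points separate, and MCM7 in control replicate 3 is far to the left at 0.133 CPM, which is 1 count.

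The D cyclins and their kinases link growth signals to entry into the cycle. Of these 5 genes, none was called, and the median log2 fold change was -0.02. CDK6, a kinase partner of the D cyclins, had 11.1 and 17.4 CPM in the controls and 7.43 and 7.72 CPM after sevoflurane, with replicate 2 before replicate 3 here and below. Both sevoflurane libraries lay below both controls, and the controls differed from each other more than the sevoflurane libraries did. Its log2 fold change was -0.90 (SE 0.29, 95% interval -1.55 to -0.25), with an edgeR adjusted p = 0.299. Without control replicate 2 it was called lower (-1.20, edgeR adjusted p = 0.0435), and over the 12 alternatives the adjusted p ranged from 0.0435 to 0.728 with the same direction in 12.

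CCND1, the D cyclin most closely tied to mitogen signals, had 132 and 110 CPM in the controls and 101 and 73.8 CPM after sevoflurane. The groups did not overlap, but the gap between the lower control and the higher sevoflurane library was smaller than the spread within either group. The log2 fold change was -0.47 (SE 0.17, 95% interval -0.87 to -0.08), with an edgeR adjusted p = 0.391. It kept its sign when any 1 library was left out, between -0.71 and -0.26.

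Markers of oligodendrocyte precursors moved in the same direction as these 2 genes. So did the medians of mature oligodendrocyte (-1.81), astrocyte (-0.40) and microglial (-0.34) markers, while those of neurons (0.14) and meningeal and perivascular fibroblasts (1.02) were positive. All 15 precursor markers tested had negative values, but uneven ones, from -1.41 (SOX10) to -0.02 (PCDH15), with a median of -0.74. Both sevoflurane libraries lay below both controls for 11 of the 15 (background 20.4%). Among the 15 markers, 2 were called lower, SOX10 and OLIG2, which are not specific to precursors within the oligodendrocyte lineage. The call of OLIG2 was lost without TMM (edgeR adjusted p = 0.0584) and without the count filter (0.0795). Their summed level was 1212 and 1166 CPM in controls and 686 and 784 CPM after sevoflurane, with no marker at 0 in any library. PDGFRA, a growth factor receptor that marks these precursors, had 197 and 173 CPM in controls and 166 and 170 CPM after sevoflurane (-0.14, edgeR adjusted p = 0.795). PCDH15, MYT1, SOX6 and MEGF11, whose groups overlapped, had values from -0.25 to -0.02. The lower sum is thus a result for this list of markers, and precursor number was not measured. CDK6 was highest in control replicate 3 and lowest in sevoflurane replicate 2, as was the summed level of mature oligodendrocyte markers. CCND1 was highest in control replicate 2 and lowest in sevoflurane replicate 3. The precursor sum was highest in control replicate 2 and lowest in sevoflurane replicate 2. The part of any of these cell types in the values of CDK6 and CCND1 was not tested.

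The other members of this group showed no separation. CCND2, another D cyclin, had 603 and 815 CPM in controls and 730 and 665 CPM after sevoflurane, so both sevoflurane libraries fell between the controls (-0.02, 95% interval -0.36 to 0.31). CCND3 also had both sevoflurane libraries between the controls, at 18.0 and 34.1 CPM in controls and 22.2 and 29.95 CPM after sevoflurane (0.01, SE 0.29). CDK4, the second kinase of the pair, had 24.3 and 24.4 CPM in controls and 23.0 and 26.5 CPM after sevoflurane (0.02, 95% interval -0.40 to 0.44). A 2-fold change lay outside the intervals of CCND1, CCND2, CCND3 and CDK4, and inside that of CDK6.

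CCNE1, CCNE2, CDK2 and E2F1 act at the step into S phase. None was called, and their values went both ways (2 positive, 2 negative, median 0.22). The cyclin E genes, which activate CDK2, were each slightly higher in both sevoflurane libraries than in either control. CCNE1 had 3.51 and 3.05 CPM in controls and 4.53 and 4.41 CPM after sevoflurane (0.44, SE 0.39). CCNE2 had 1.95 and 1.86 CPM in controls and 1.96 and 3.65 CPM after sevoflurane (0.56, SE 0.53), so its difference rested on sevoflurane replicate 3. Without that library it was 0.05.

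CDK2, the kinase that cyclin E and cyclin A bind, had 6.83 and 7.29 CPM in controls and 6.49 and 4.16 CPM after sevoflurane (-0.41, SE 0.35). E2F1, the transcription factor that switches on S-phase genes, had 4.29 and 10.1 CPM in controls and 6.58 and 7.55 CPM after sevoflurane (-0.00, SE 0.41). The spread of E2F1 within the controls was thus wider than any difference between the groups, and leaving out control replicate 2 gave -0.51, leaving out control replicate 3 gave 0.72.

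None of the replication genes was called, and their median was 0.14. The 9 members encode the MCM helicase that unwinds DNA, the sliding clamp PCNA and the 2 subunits of ribonucleotide reductase, which makes deoxynucleotides. Their summed level was 103 and 96.4 CPM in the controls and 107 and 102 CPM after sevoflurane. The groups overlapped, at 99.6 ± 4.56 CPM in controls and 105 ± 3.28 CPM after sevoflurane (SD, n = 2 per group). The sum is mostly MCM4, RRM1, MCM6 and PCNA.

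MCM6, a helicase subunit, had the clearest separation of this group, with 15.03 and 13.9 CPM in controls and 19.0 and 20.0 CPM after sevoflurane. The gap between the groups was larger than the spread within them, but the gene was not called (0.43, SE 0.21, 95% interval -0.04 to 0.89, edgeR adjusted p = 0.564). MCM5, a subunit of the same ring, had the opposite sign, with 3.51 and 3.71 CPM in controls and 2.65 and 1.44 CPM after sevoflurane (-0.82, SE 0.50). The helicase subunits, which work as 1 complex, thus did not share a sign. MCM2 (-0.09, SE 0.29), MCM3 (-0.26, SE 0.40) and MCM4 (-0.16, SE 0.17) had small negative values.

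MCM7 had 13, 1, 16 and 13 counts in control replicates 2 and 3 and sevoflurane replicates 2 and 3. Its value of 0.72 (SE 0.86) rested on the single count in control replicate 3, and without that library it was -0.04. PCNA had 10.5 and 9.68 CPM in controls and 11.96 and 11.1 CPM after sevoflurane (0.19, 95% interval -0.36 to 0.74). RRM1, the large reductase subunit, had 24.8 and 15.9 CPM in controls and 26.1 and 23.8 CPM after sevoflurane. Control replicate 3 alone was low, and the difference of 0.29 (SE 0.24) was 0.01 without it. RRM2, the small subunit that is made in S phase, had 8 to 19 counts per library (0.14, SE 0.67).

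**Figure D2:**
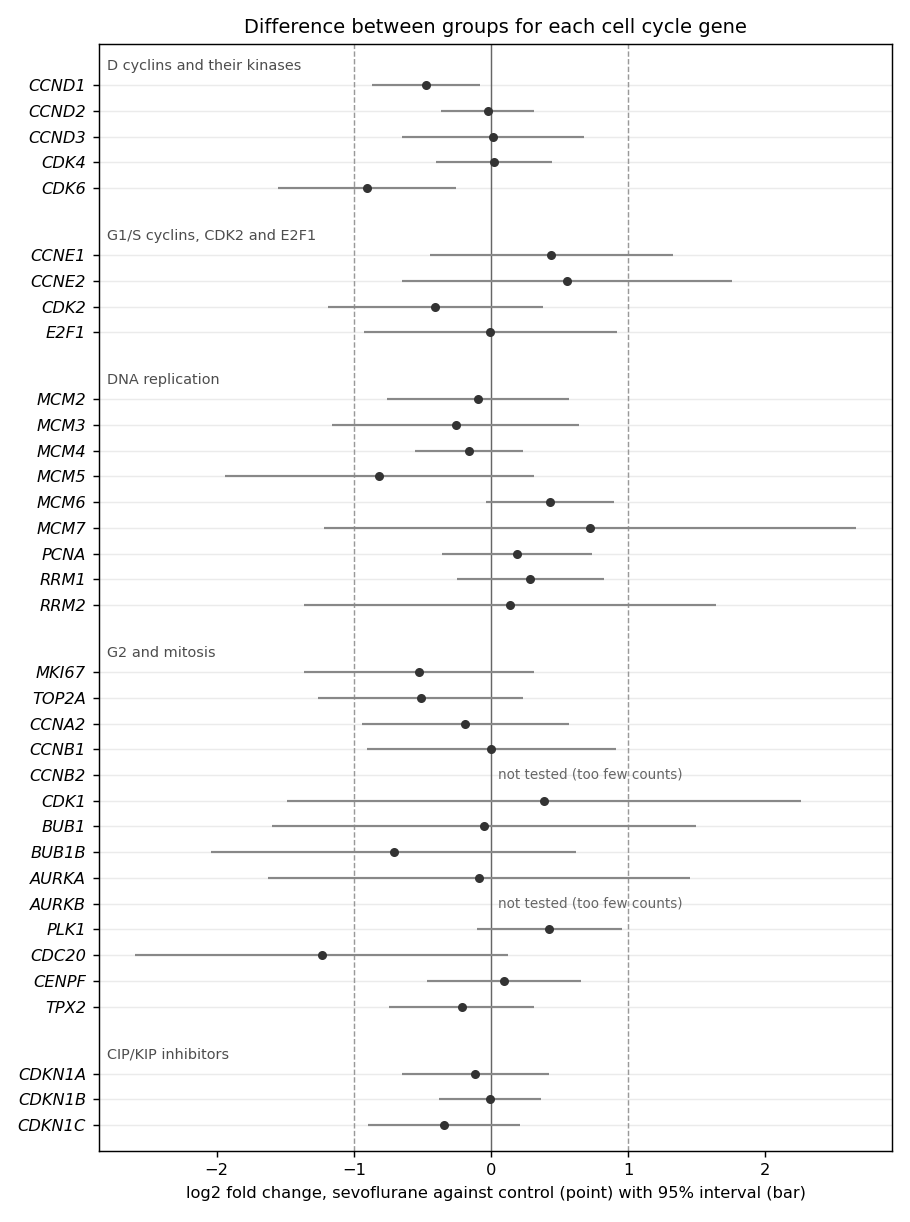
Log2 fold change of sevoflurane against control for the 33 tested genes (points) with 95% intervals (bars), from edgeR's quasi-likelihood fit. Dashed lines mark a 2-fold change. Of the 33 intervals, those of CDK6 and CCND1 leave out 0 although neither gene was called, and genes with few counts such as MCM7, CDK1 and BUB1 have bars that cross both dashed lines.

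Among the 14 genes of G2 and mitosis, 12 were tested, none was called, and the median was -0.14. MKI67, which encodes the Ki-67 protein used to count dividing cells, had 12.003 and 5.97 CPM in controls and 5.55 and 7.04 CPM after sevoflurane. Control replicate 2 alone was high, and the other 3 libraries lay close together. The log2 fold change was -0.53 (SE 0.37, 95% interval -1.36 to 0.31), and it was 0.08 without control replicate 2. TOP2A, the topoisomerase that untangles chromosomes before division, had 6.25 and 7.16 CPM in controls and 4.78 and 4.58 CPM after sevoflurane. Its groups did not overlap, and it had -0.51 (SE 0.33, 95% interval -1.26 to 0.23, edgeR adjusted p = 0.688).

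CDC20, which activates the ubiquitin ligase that starts chromosome separation, had the most negative value of the 33 genes, from few counts. It had 23 and 15 counts in controls and 12 and 9 counts after sevoflurane. As levels, these were 2.24 and 1.99 CPM against 1.03 and 0.764 CPM (-1.24, SE 0.60, 95% interval -2.60 to 0.13, edgeR adjusted p = 0.568). The value stayed between -1.46 and -1.04 when any 1 library was left out. BUB1B, a spindle checkpoint kinase, also had both sevoflurane libraries below both controls, with 2.44 and 1.72 CPM in controls and 1.03 and 1.53 CPM after sevoflurane (-0.71, SE 0.59). TPX2, a spindle assembly factor, had 12.2 and 13.1 CPM in controls and 10.9 CPM in each sevoflurane library (-0.21, 95% interval -0.74 to 0.31).

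PLK1, a kinase that acts throughout mitosis, went the other way. It had 81.7 and 45.6 CPM in the controls and 87.3 and 84.3 CPM after sevoflurane. Control replicate 2 lay near the sevoflurane libraries, and control replicate 3 was low. The log2 fold change was 0.42 (SE 0.23, 95% interval -0.11 to 0.95, edgeR adjusted p = 0.629). Without control replicate 2 it was called higher (0.91, edgeR adjusted p = 0.00769), and without control replicate 3 it was 0.07, so its value depended on which control was kept.

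The cyclins of G2 and mitosis showed no separation of the groups. CCNA2, which acts from S phase to early mitosis, had 8.39 and 5.57 CPM in controls and 6.66 and 5.68 CPM after sevoflurane (-0.19, SE 0.33). CCNB1, the main partner of CDK1 at entry into mitosis, had 4.78 and 3.58 CPM in controls and 3.59 and 4.84 CPM after sevoflurane (0.00, SE 0.40). CENPF, a kinetochore protein, had 17.8 and 13.0 CPM in controls and 14.3 and 18.7 CPM after sevoflurane (0.09, SE 0.25). In these 3 genes the spread within a group exceeded the difference between the groups.

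The remaining mitotic genes were close to the limit of counting. CDK1, the kinase that triggers mitosis, had 10, 2, 12 and 8 counts in control replicates 2 and 3 and sevoflurane replicates 2 and 3 (0.39, SE 0.83). BUB1, a checkpoint kinase, had 17, 5, 14 and 13 counts in the same order (-0.05, SE 0.69). AURKA, a spindle pole kinase, had 12, 21, 12 and 31 counts (-0.09, SE 0.68), with replicate 3 the higher in both groups. CCNB2, a second B cyclin, had 9, 3, 9 and 13 counts, and AURKB, a kinase of the centromere and midzone, had 6, 5, 12 and 2 counts. These last 2 had too few counts for the test.

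The summed level of the G2 and mitosis genes was 153 and 103 CPM in the controls and 140 and 144 CPM after sevoflurane. The groups overlapped, at 128 ± 35.7 CPM in controls and 142 ± 2.62 CPM after sevoflurane (SD, n = 2 per group). PLK1 took 44.5% to 62.3% of this sum in the 4 libraries. Without PLK1, a choice made after its values were seen, the sums were 71.3 and 56.9 CPM in controls and 52.9 and 59.6 CPM after sevoflurane, and the log2 ratio of the group means changed from 0.15 to -0.19. The sign of the mitotic sum thus depended on 1 gene, and the groups overlapped in either form.

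**Figure D3:**
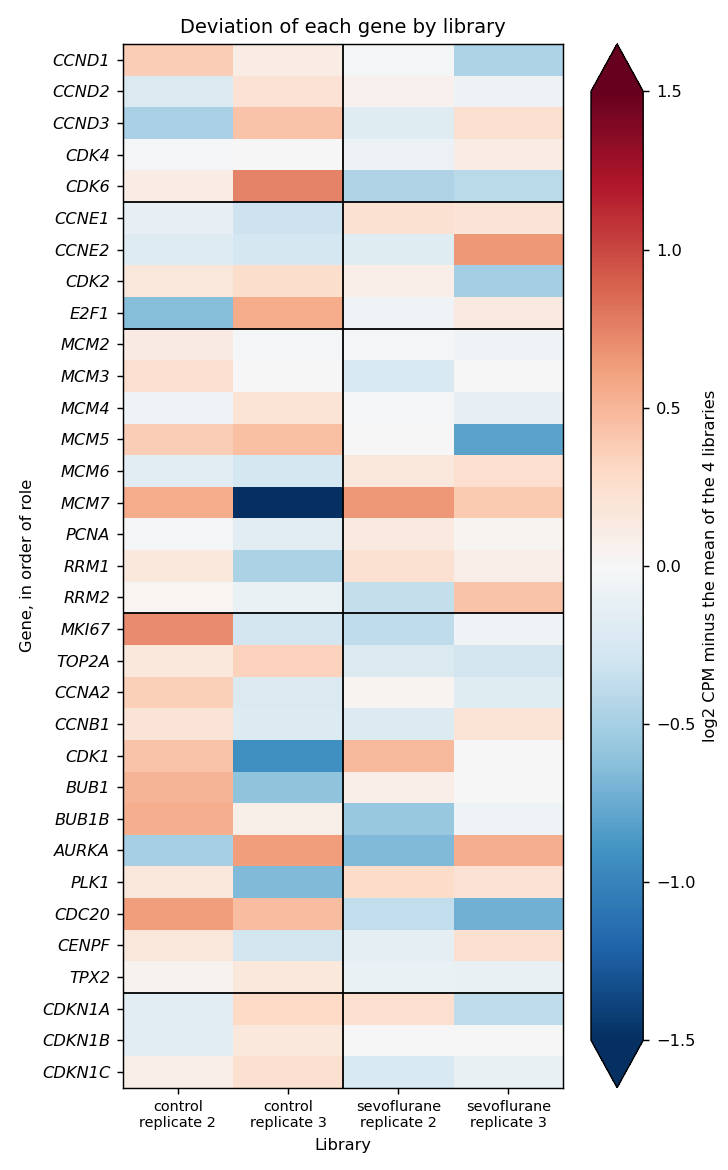
Deviation of each of the 33 tested genes from its mean over the 4 libraries (log2 CPM; red above, blue below, colour limits at 1.5), with a column per library and black lines between roles and groups. Within G2 and mitosis, most genes are red in control replicate 2, and no role has 1 colour throughout both libraries of a group. MCM7 in control replicate 3 lies beyond the colour scale.

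Libraries of the same group often differed as much as the groups did. In 17 of the 33 genes (51.5%) the ratio between the control libraries was further from 1 than the ratio between the group means, below the 61.1% of all tested genes. For the sevoflurane pair this held in 16 of the 33 (48.5%), near the 48.1% of all tested genes. Of the 21 tested replication and mitosis genes, 10 were lowest in control replicate 3 and 0 in control replicate 2. For all tested genes, 31.7% were lowest in control replicate 3 and 24.8% in control replicate 2. For the 12 tested mitotic genes, the median log2 deviation from the mean over libraries was 0.28 in control replicate 2 and -0.21 in control replicate 3, beside -0.17 and -0.03 in the sevoflurane pair. Control replicate 3 was also lowest for 10 of 12 meningeal and perivascular fibroblast markers (summed level 260 and 137 CPM in controls, 647 and 235 CPM after sevoflurane, no marker at 0). The part of these cells in the low mitotic values of control replicate 3 was not tested.

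The 3 CIP/KIP inhibitors bind and block cyclin-kinase complexes. None was called, and the interval of each excluded a 2-fold change. CDKN1A encodes p21, which p53 and several stress signals induce. It had 38.5 and 53.4 CPM in controls and 51.4 and 33.3 CPM after sevoflurane, so both groups spanned nearly the same range (-0.12, 95% interval -0.65 to 0.42). CDKN1B encodes p27, which holds differentiating precursors out of the cycle, and had 46.4 and 58.3 CPM in controls and 52.3 and 51.8 CPM after sevoflurane (-0.01, 95% interval -0.38 to 0.37). CDKN1C, which encodes p57, had 11.6 and 12.7 CPM in controls and 9.14 and 10.01 CPM after sevoflurane. Both its sevoflurane libraries lay below both controls (-0.34, SE 0.24, edgeR adjusted p = 0.726).

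A wider set of 182 cell cycle and growth arrest genes outside the 35 was examined in 4 lists, of which 180 were found and 153 tested. In edgeR's quasi-likelihood fit 1 was called, ANLN, which was lower, as it was by DESeq2 and limma-voom. The likelihood ratio test called 3 (ANLN, BIRC5 and BBC3). At an unadjusted p under 0.05 there were 10 (6.54%, against the background of 9.92%). The median log2 fold change over the 153 was 0.01. Both sevoflurane libraries lay above both controls in 36 and below in 35, or 46.4% in all, beside 41.2% of all tested genes (20.8% above and 20.4% below).

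ANLN encodes anillin, a scaffold of the contractile ring that divides the cell, which mature oligodendrocytes also express in myelin. It fell from 47.5 and 82.0 CPM in control replicates 2 and 3 to 10.3 and 20.1 CPM in sevoflurane replicates 2 and 3 (-2.08, SE 0.33, edgeR adjusted p = 0.0322). Both sevoflurane libraries were well below both controls. With no filter on low counts it was not called (edgeR adjusted p = 0.0706), and with 1 library left out it ranged from -2.64 to -1.64. The 14 mature oligodendrocyte markers had a median of -1.81, and 12 of them were called lower. Their summed level was 9536 and 15020 CPM in controls and 2491 and 3724 CPM after sevoflurane, with no marker at 0. ANLN had the library order of this sum, highest in control replicate 3 and lowest in sevoflurane replicate 2. The summed level of the mitotic members was lowest in control replicate 3. Without PLK1, the mitotic sum was instead lowest in sevoflurane replicate 2 (52.9 CPM, against 56.9 CPM in control replicate 3). The part of mature oligodendrocytes in the value of ANLN was not tested.

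Among 50 tested replication genes of the wider set, 0 were called by edgeR's quasi-likelihood test, or by DESeq2 or limma-voom, and 2 had an unadjusted p under 0.05, with 31 positive and 19 negative values (median 0.14). TYMS, which makes thymidylate for DNA synthesis, had 46 and 44 counts in controls and 15 and 29 counts after sevoflurane (-1.45, SE 0.48, edgeR adjusted p = 0.325). CDT1, which loads the MCM helicase on origins, had 53 and 71 counts in controls and 6 and 42 after sevoflurane (-1.82, SE 0.69, edgeR adjusted p = 0.411). Its low value was in sevoflurane replicate 2, and it was called without sevoflurane replicate 3 (-3.79, edgeR adjusted p = 0.000528). RFC2, a subunit of the complex that loads PCNA, had 28.5 and 25.6 CPM in controls and 34.5 and 36.4 CPM after sevoflurane (0.39, SE 0.17, edgeR adjusted p = 0.505).

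Among 45 further genes of G2 and mitosis that were tested, the values were 21 positive and 24 negative, with a median of -0.07. After ANLN the smallest p-values belonged to BIRC5 and CDCA8, which encode 2 subunits of the chromosomal passenger complex that carries AURKB. They had opposite signs. BIRC5 had 18 and 20 counts in controls and 0 and 5 after sevoflurane (-3.29, SE 0.99, edgeR adjusted p = 0.27). CDCA8 had 15 and 4 counts in controls and 55 and 29 after sevoflurane (1.78, SE 0.63, edgeR adjusted p = 0.367). Neither was called by the quasi-likelihood test on all 4 libraries. By edgeR's likelihood ratio test BIRC5 was called lower (-3.29, adjusted p = 0.0065), and it was called too by the quasi-likelihood test without sevoflurane replicate 3 (edgeR adjusted p = 0.0432), which leaves 0 counts after sevoflurane.

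Of 34 tested pocket proteins, E2F factors, CDK inhibitors and other regulators, 0 were called by edgeR's quasi-likelihood test and 1, CCNG2, had an unadjusted p under 0.05. CCNG2, a cyclin linked to exit from the cycle, had 83.5 and 74.9 CPM in controls and 106 and 113 CPM after sevoflurane (0.47, SE 0.14, edgeR adjusted p = 0.252), and it was called without control replicate 2 (0.55, edgeR adjusted p = 0.0491). WEE1, a kinase that restrains CDK1, had -0.77 (SE 0.38), and RBL1, a relative of the retinoblastoma protein, had -0.47 (SE 0.27).

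Of 24 tested p53 targets and growth arrest genes, 0 were called by edgeR's quasi-likelihood test. In that test 4 had an unadjusted p under 0.05 (16.7%, background 9.92%), 3 higher and 1 lower. The median log2 fold change of the 24 was -0.05. BBC3, which encodes the cell death protein PUMA, had 5.56 and 6.23 CPM in controls and 12.8 and 12.3 CPM after sevoflurane. The groups were well apart, and it had 1.09 (SE 0.27, edgeR adjusted p = 0.149). By edgeR's likelihood ratio test BBC3 was called higher (adjusted p = 0.0222), while DESeq2 and limma-voom did not call it. PLK3, a stress-responsive relative of PLK1, had 14.1 and 10.6 CPM in controls and 7.69 and 4.07 CPM after sevoflurane (-1.07, SE 0.35, edgeR adjusted p = 0.308). SESN1, a p53 target of the stress response, had 33.6 and 24.8 CPM in controls and 44.7 and 38.8 CPM after sevoflurane (0.51, SE 0.20, edgeR adjusted p = 0.416). CDKN1A, the best known target of p53, did not share the separation of BBC3.

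**Figure D4:**
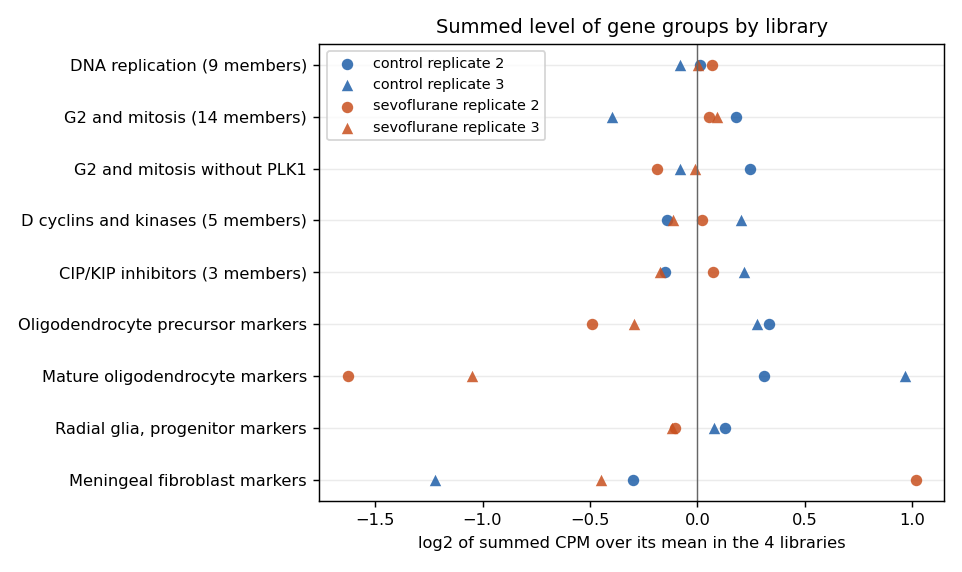
Summed CPM of gene groups in each library, as the log2 ratio to the mean of the 4 libraries. Blue is control and orange sevoflurane, circles are replicate 2 and triangles replicate 3. The replication and mitosis sums overlap between groups. The summed oligodendrocyte precursor and mature oligodendrocyte markers are lower in both sevoflurane libraries, at -0.49 and -0.29 for the precursor list and -1.63 and -1.05 for the mature list.

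Set side by side in the same libraries, the summed precursor markers had a log2 ratio of sevoflurane over control of -0.69. Single precursor markers ranged from -1.41 (SOX10) to -0.02 (PCDH15). The replication sum had 0.07 and the mitotic sum 0.15 (-0.19 without PLK1). Mature oligodendrocyte markers had -1.98 and endothelial markers -0.02. Meningeal and perivascular fibroblast markers had 1.15, with 12 of 12 positive and SLC6A13, a GABA transporter, called higher (1.43, edgeR adjusted p = 0.0465). All 12 were highest in sevoflurane replicate 2. Their sums overlapped between groups, at 260 and 137 CPM in controls and 647 and 235 CPM after sevoflurane. The call of SLC6A13 was lost by limma-voom (adjusted p = 0.0668), without TMM (0.0605), without the count filter (0.0885) and when sevoflurane replicate 2 was left out (0.14).

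Other sums rested on a few genes. Markers of radial glia and neural progenitors had -0.22, with SOX2 called lower among 13 tested, and 0.0011 without SOX2. Astrocyte markers had -0.58, with GFAP called lower among 9, and -0.04 without GFAP. Both removals were chosen after the values were seen. The sums hide lower values of less abundant markers. SLC1A2 and SLC1A3, the most abundant astrocyte markers left without GFAP, each had 0.06. Both sevoflurane libraries lay below both controls for 5 of the 9 astrocyte markers and above for 1, with a median of -0.40. Among the 13 progenitor markers they lay below for 4 and above for 2, with a median of -0.14. Microglial markers had -0.43, with CX3CR1 and SALL1 called lower among 12. Within that list the complement genes C1QA (0.66, SE 0.22, edgeR adjusted p = 0.331) and C1QB (0.67, SE 0.25, edgeR adjusted p = 0.391) had positive values with groups that did not overlap, and were not called. The call of SALL1 was lost when sevoflurane replicate 2 was left out (edgeR adjusted p = 0.15), without TMM (0.0558) and without the count filter (0.0746). Whether these sums differ from one another was not tested.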

How the data were processed

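The authors deposited 1 table of raw read counts per gene, with a column for each of the 4 libraries. The submitters' processing notes name HISAT2 as the aligner. Its version, the counting program, genome build, annotation and strand setting are not given, so genes with near-identical copies or overlapping partners are uncertain. Total RNA was used, per the labels' protocols.

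Analysis used R 4.3.3 with edgeR 4.0.16. The filter kept genes with about 10 counts at median depth in 2 libraries and 15 in total. Counts were scaled by TMM, and all 17693 genes were fitted in a two-sided quasi-likelihood test of group, without covariates; p-values were adjusted over all of them. The 95% intervals come from the SE and the fit's degrees of freedom. With 2 libraries a group, the smallest exact permutation p is 0.333, so sums and medians are descriptions without a test. The steps were run on counts simulated from the levels and fitted spread of these same libraries. Such a run checks the code and cannot show whether the calls would hold in other animals. The libraries of a group differed by more than sampling noise.

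The members and lists were chosen with earlier results of these data known. Every member is described. From the wider lists, called genes and the 3 with the smallest p are named. Members were matched by symbol. Of the other list genes, 6 went by a RefSeq gene number or older symbol and 2 were not found. The alternatives changed the scaling (DESeq2 size factors, or library size alone), the filter (none, or 1 CPM in 2 libraries with a mean of 5 CPM), the test (DESeq2 1.42.0, limma-voom with limma 3.58.1, or edgeR's likelihood ratio test) and the design (replicate number as a block), and left out each library. Log2 deviations used a prior count of 2.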

Additional observations from a re-analysis of the deposited data

How the results depend on the processing

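No cell cycle member was called under any scaling, filter or test tried. When 1 library was left out, the count ranged from 0 to 2, the latter without control replicate 2 (CDK6 lower, PLK1 higher). A lone library in a group is then assumed to vary like the others. Calls among the 153 wider genes were 1 (ANLN), with 0 with no filter, 3 by the likelihood ratio test (ANLN, BIRC5, BBC3), and 1 to 3 with 1 library left out. Calls among all genes were 106, with 60 with no filter, 279 by DESeq2, 441 by the likelihood ratio test, and 178 to 607 with 1 library left out. With the replicate number as a block they were 511, with 0 members and 5 wider genes (ANLN, BBC3, BIRC5, CDT1, PLK3). Deviations of same-numbered libraries correlated at 0.0090. With a single difference per group, this value cannot show whether same-numbered libraries shared a batch, and the labels do not explain the number. The cause of these shifts in counts was not tested.

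Of 33 members, 18 kept their sign without each library in turn and 15 did not. The log2 fold changes of the latter then ranged as follows: CCND2 -0.23 to 0.21, CCND3 -0.39 to 0.54, CDK4 -0.082 to 0.12, E2F1 -0.51 to 0.72, MCM7 -0.039 to 3.11, RRM2 -0.38 to 0.52, MKI67 -0.93 to 0.077, CCNA2 -0.44 to 0.15, CCNB1 -0.22 to 0.23, CDK1 -0.19 to 1.64, BUB1 -0.53 to 0.78, AURKA -0.92 to 0.64, CENPF -0.11 to 0.34, CDKN1A -0.46 to 0.17, CDKN1B -0.17 to 0.16. Otherwise the sign changed only for values near 0: E2F1 with library size alone (0.022), the stricter filter (0.0025), limma-voom (0.17) and the block (0.079), BUB1 by limma-voom (0.019) and the block (0.053), CDKN1B with library size alone (0.012), limma-voom (0.013) and the block (0.00046), and CCNB1 by limma-voom (-0.022). Without each library in turn, role medians ranged from -0.34 to 0.025 (D cyclins and kinases), -0.032 to 0.43 (G1 to S, and -0.20 with the stricter filter, which left CDK2 and E2F1), -0.078 to 0.21 (replication), -0.30 to 0.11 (G2 and mitosis) and -0.34 to 0.14 (CIP/KIP inhibitors). The log2 ratio of the mitotic sums ranged from -0.11 to 0.47, and was -0.19 without PLK1. Of the 33, the 12 with the fewest counts have no value under the stricter filter.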
